A study of Mus musculus with 4 samples.

Results

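Cell cycle and mitosis genes were examined as 1 group in a mouse marrow fraction enriched for osteoblasts. The group was a list of 42 named genes, 17 that act at the start of DNA replication and 25 that act in mitosis, and each gene was represented by the probe sets annotated to it alone. Of these, 41 were measured, by 95 probe sets, out of 18193 genes measured in all. Ccnb1, cyclin B1, was not analysed here. The rule that picks the genes uses their names and no measured value, but the list was drawn up with earlier results of these data known.

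The cells came from adult NOD/SCID mice (strain NOD.CB17-Prkdc scid/J), described as recipient animals. All 4 samples carry the scid mutation, so the hosts lack mature lymphocytes. Sorted cells were positive for the integrin CD51 and negative for CD45, CD31, Sca1 and lineage antigens. Of the samples, 2 samples came from the trabecular bone area and 2 from the long bone area, each on its own array. No treatment, age in weeks or sex is given, and the labels do not say whether the replicates of both areas came from the same mice, so p-values measure the spread between these samples only. The submitters call the arrays of an area biological replicates.

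A dividing cell passes from G1 into S phase, when its DNA is copied, and then through G2 into mitosis, when the copies are separated. The E2F transcription factors switch on the genes of DNA replication at the G1 to S border, through short E2F sites in their promoters. The genes of mitosis peak later and are held down in resting cells by a complex that binds a promoter element called CHR, often with CCAAT boxes nearby that bind NF-Y. In the bone marrow most dividing cells belong to the blood lineages, while mature osteoblasts and osteocytes divide little.

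The promoters are shown first because the S phase and mitosis genes carry these different control sequences. The window ran from 250 bases before to 50 bases after each gene's start in RefSeq (GRCm38.p6), and 14 of 17 S phase genes and 18 of 24 measured mitosis genes had an entry. An E2F match was TTTCGCGC, TTTGGCGC, TTTCCCGC or TTTGCCGC, a CHR match was TTTGAA or TTCGAA, and a CCAAT match was CCAAT, each on either strand. Overlapping matches on opposite strands were counted separately, while a match that reads the same on both strands was counted once. An E2F match was found in 6 of 14 S phase genes (42.9%) and in 1 of 18 mitosis genes (5.56%), against 3.81% of the 14452 measured genes with an entry. The 6 were Cdc6, Cdt1, Mcm3, Mcm5, Mcm6 and Mcm7, and the mitosis gene was Cdk1. A CHR match was found in 14 of 18 mitosis genes (77.8%) and in 3 of 14 S phase genes (21.4%), against 17.5% of measured genes. CCAAT was found in 15 of 18 mitosis genes (83.3%) and 9 of 14 S phase genes (64.3%), against 6070 of the 14452. A match of letters is a description and not a site shown to be bound.

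The next lines give the 250 bases before the start of 3 S phase and 3 mitosis genes, 5' to 3' on the gene's strand, in GRCm38.p6. Capitals mark the E2F matches in the S phase promoters and the CHR matches in the mitosis promoters. Cdc6 lies at chr11:98907901-98908150 (+ strand), Mcm5 at chr8:75109259-75109508 (+ strand) and Mcm6 at chr1:128359706-128359955 (- strand). Mki67 lies at chr7:135716380-135716629 (- strand), Ccnb2 at chr9:70421555-70421804 (- strand) and Ube2c at chr2:164769679-164769928 (+ strand). Cdc6 was chosen for the largest difference between areas of all members. Mcm5 and Mcm6 were chosen because they hold overlapping E2F matches but differed in how their areas separated. The mitosis genes include Mki67, with the widest range over the arrays among mitosis members, and Ube2c, with the lowest p of all members with limma.
Cdc6: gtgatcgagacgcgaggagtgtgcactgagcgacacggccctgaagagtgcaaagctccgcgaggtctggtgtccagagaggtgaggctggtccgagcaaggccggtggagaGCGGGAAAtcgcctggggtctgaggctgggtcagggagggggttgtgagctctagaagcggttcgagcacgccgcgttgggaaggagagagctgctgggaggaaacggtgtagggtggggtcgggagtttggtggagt
Mcm5: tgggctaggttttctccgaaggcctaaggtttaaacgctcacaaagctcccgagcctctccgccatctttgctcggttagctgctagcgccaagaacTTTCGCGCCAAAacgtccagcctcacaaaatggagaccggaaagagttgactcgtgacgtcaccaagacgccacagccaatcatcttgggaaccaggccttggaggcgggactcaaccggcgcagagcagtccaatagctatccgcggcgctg
Mcm6: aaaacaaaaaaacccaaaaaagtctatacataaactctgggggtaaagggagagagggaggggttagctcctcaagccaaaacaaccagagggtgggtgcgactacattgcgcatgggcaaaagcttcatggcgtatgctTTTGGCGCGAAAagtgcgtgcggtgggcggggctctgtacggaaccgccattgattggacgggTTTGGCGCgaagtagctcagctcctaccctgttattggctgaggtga
Mki67: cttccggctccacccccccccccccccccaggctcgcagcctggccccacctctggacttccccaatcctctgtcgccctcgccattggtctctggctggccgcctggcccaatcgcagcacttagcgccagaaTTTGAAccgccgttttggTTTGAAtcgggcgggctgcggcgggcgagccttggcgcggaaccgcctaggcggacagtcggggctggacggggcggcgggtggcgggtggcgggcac
Ccnb2: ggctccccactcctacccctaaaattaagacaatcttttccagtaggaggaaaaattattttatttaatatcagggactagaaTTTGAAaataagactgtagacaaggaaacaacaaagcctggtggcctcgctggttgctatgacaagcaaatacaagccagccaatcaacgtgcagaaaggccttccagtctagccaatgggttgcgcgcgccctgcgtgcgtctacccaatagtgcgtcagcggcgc
Ube2c: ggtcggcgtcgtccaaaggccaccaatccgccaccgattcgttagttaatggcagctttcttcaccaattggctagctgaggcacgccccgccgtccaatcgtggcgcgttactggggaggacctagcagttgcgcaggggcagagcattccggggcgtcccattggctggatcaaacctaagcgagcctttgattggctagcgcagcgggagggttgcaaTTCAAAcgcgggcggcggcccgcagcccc

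In the Mcm5 promoter 2 E2F matches overlap on opposite strands, and the Mcm6 promoter has such an overlapping pair and a further E2F match. The Mki67 promoter has 2 CHR matches and 3 CCAAT matches, and the Ube2c promoter has 1 CHR match and 6 CCAAT matches. The Ccnb2 window holds another CHR match in the bases after the start, which are not printed.

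**Figure D1:**
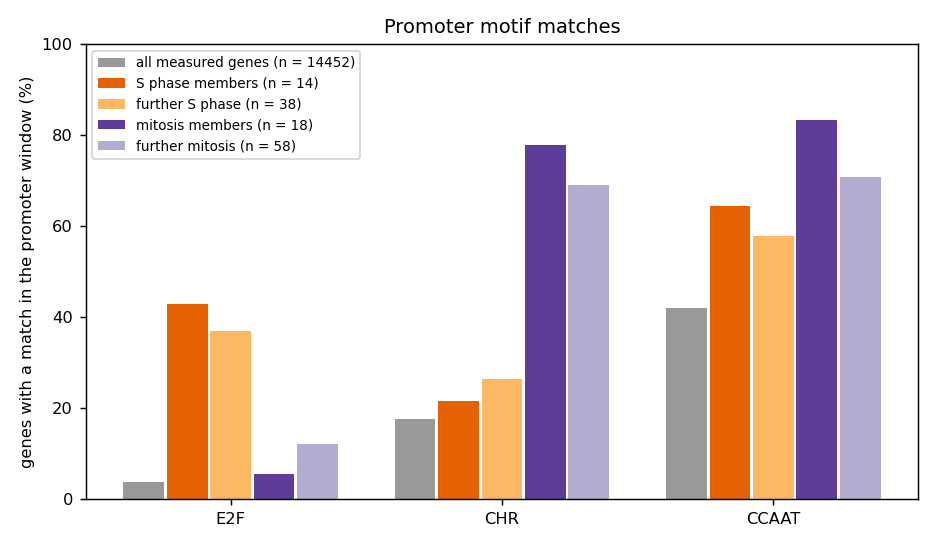
Percentage of genes (vertical axis, from 0) with at least 1 E2F, CHR or CCAAT match in the promoter window, for all measured genes and 4 cell cycle lists, each with its number of genes. E2F matches were found in 42.9% of the S phase members and CHR matches in 77.8% of the mitosis members, against 3.81% and 17.5% of all measured genes.

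Expression is given on a log2 scale with each probe set's 4-array median at 0. A value is therefore a difference from that median and not a level, and for a gene with 1 probe set the middle values are mirror images. Long bone array 2 stood apart: 688 genes lay 2-fold or more from the 4-array median there and 85 to 143 on each other array. The 5' probe set of Gapdh, read against its 3' probe set as a measure of RNA quality, was at -1.16 there and at -0.086 to 0.31 elsewhere. The same reading for Actb did not set that array apart. It was at -0.037 there, 0.44 on trabecular array 1, -0.068 on trabecular array 2 and 0.068 on long bone array 1. The general scale also differed between areas. The 18 spiked hybridisation control probe sets were all lower on both trabecular arrays, with a median log2 difference of -0.49, while 8 of 8 measured reference genes had a positive difference, with a median of 0.41. A rough reading of the level before centring, from the step between stored numbers, put 63 of the 95 member probe sets at a log2 level of 8 or above, here called bright, and 38 of 41 members had at least 1 of these. The other 32 probe sets were read at lower levels, 29 of them at 4 to 8. Of the markers of the sorted type, 7 of 10 osteoblast genes were measured and 3 had a bright probe set, among them the bone sialoprotein gene Ibsp, and all 7 were lower in the trabecular area without overlap (21.4% of all genes were), with a median of -0.96 that was -0.49, with 2 of 7 lower, when the hybridisation controls set the scale. CD51 itself (Itgav) had a bright probe set, CD31 (Pecam1) had none, and CD45 (Ptprc), which the sort excludes, had 1. Precision is limited by having 2 arrays in an area.

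The main comparison asks whether the cell cycle programme of the sorted cells differed between the trabecular and long bone areas. No member passed the test. With limma over all 18193 genes, 0 of 41 members and 0 genes in all (0% called) had an adjusted p under 0.05, and the lowest adjusted p among members was 0.273. At an unadjusted p under 0.05 there were 3 members, Ube2c, Cdc25c and Cdt1, all with positive differences, against 2811 genes in all (15.5%). None of the members was 2-fold apart without overlap, against 2.63% of genes. With 2 arrays on each side the smallest two-sided p of an exact permutation test is 0.333, so single genes were not tested that way. In these sorted samples fewer cells of a dividing type and less RNA per cell cannot be told apart.

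Without a call, the members are described by whether the 2 trabecular values lay on 1 side of both long bone values. Of 41 members 11 were higher in the trabecular area without overlap (26.8%, against 29.9% of all genes), 2 were lower (4.88%, against 21.4%) and 28 overlapped. The difference was positive for 30 of 41 (73.2%, against 54.6% of all genes and 67.9% of genes with a bright probe set). The 11 were unevenly placed, with 9 of 17 S phase genes (52.9%) and 2 of 24 mitosis genes (8.33%). Over bright probe sets alone 5 of 16 S phase and 4 of 22 mitosis genes were higher without overlap, against 42.2% of all such genes. The difference between these shares was not tested. The median log2 difference, trabecular minus long bone area, was 0.27 for S phase genes, 0.080 for mitosis genes and 0.029 for all genes. Both medians depend on the scale. With the reference genes as scale they were -0.14 and -0.34 with all genes at -0.39, and centred on the hybridisation controls they were 0.75 and 0.55 with all genes at 0.50. Relative to all genes the S phase median stood 0.25 higher and the mitosis median 0.051 higher, a gap that these 2 scalings leave as it is. Bright genes in general leaned the same way. Of 8811 genes with a bright probe set 41.4% were higher in the trabecular area without overlap and 14.8% lower, and over bright probe sets alone the S phase median was 0.0099 above that of all such genes and the mitosis median 0.077 below (log2 -0.077).

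The count without overlap depended on single arrays. It was 27 higher without trabecular array 1 and 28 without long bone array 1, while 10 members were lower without trabecular array 2 and 12 without long bone array 2. With 1 array left in an area such separation is also more common among all genes, at 40.1% and 42.3% higher and 28.6% and 29.5% lower. Higher were 15 S phase and 12 mitosis genes without trabecular array 1, and 13 and 15 without long bone array 1. They were 9 and 2 without trabecular array 2 and 10 and 4 without long bone array 2, against 41.4% and 44.6% of all genes. With the reference genes as scale 0 members were higher and 24 lower, against 5.18% and 65.8% of all genes. Centred on the hybridisation controls 35 were higher and 0 lower, against 83.3% and 1.62% of all genes. On that scale 16 members were called, with 8257 genes called in all. Counts per role and list on these 2 scales, given below, stand beside these shares of all genes.

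**Figure D2:**
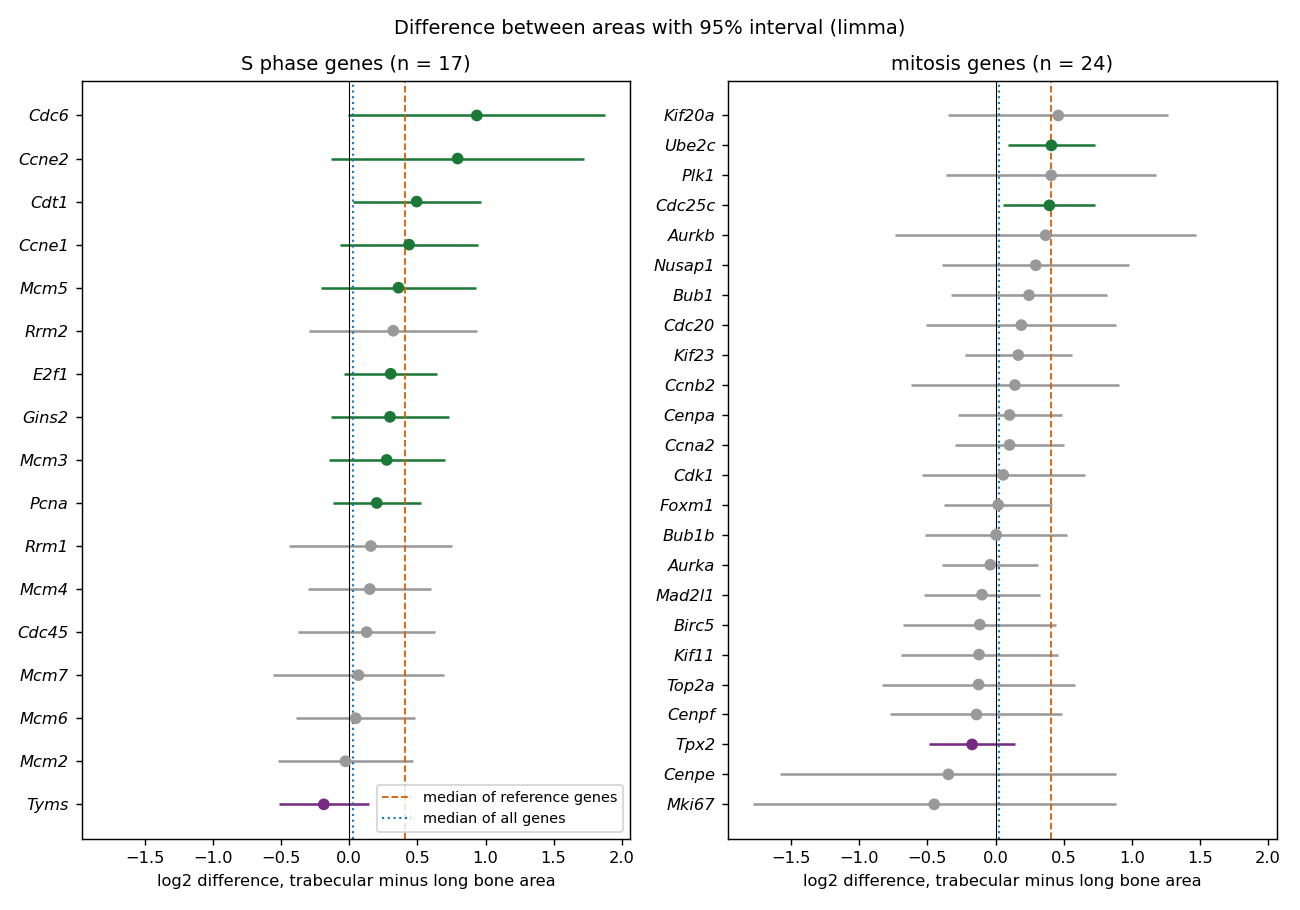
Log2 difference, trabecular minus long bone area, of each measured S phase (left) and mitosis (right) member, with its 95% interval from limma. Green points had both trabecular arrays above both long bone arrays, purple points both below, grey points overlapped, and the lines give the median of all genes (0.029) and of the reference genes (0.41). Intervals of Cdt1, Ube2c and Cdc25c exclude 0, and 25 of the 30 positive differences turn negative when the arrays are centred on the reference genes, while with the hybridisation controls as scale all 41 are positive.

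The 3 members of G1 to S control were all higher in the trabecular samples without overlap on the deposited scale. On that scale 29.9% of all genes were, and 41.4% of genes with a bright probe set. It was also 3 of 3 with quantile normalization and with the hybridisation controls as scale, but 0 of 3 when centred on the reference genes. Of the 7 G1 cyclins and kinases read below, 2 were higher and 2 lower without overlap on the deposited scale. E2f1, an activator of replication genes, was at 0.13 and 0.23 in the trabecular samples, arrays 1 and 2 in that order, and at -0.064 and -0.19 in the long bone samples. Its difference was 0.30 (SE 0.13, adjusted p = 0.353 with limma). All 3 of its probe sets had positive differences, from 0.27 to 0.37, but none of the 3 was bright. Ccne1 and Ccne2 encode E-type cyclins, which activate CDK2 at the G1 to S border. Ccne1 was at 0.060 and 0.38 in the trabecular area and -0.060 and -0.38 in the long bone area, a difference of 0.44 (SE 0.19), or 0.28 without trabecular array 2 or long bone array 2. Ccne2 was at 0.24 and 0.12 against -0.12 and -1.11, a difference of 0.80 (SE 0.35). The size of the Ccne2 difference came largely from long bone array 2: without it the difference was 0.30. It was 1.29 without long bone array 1, a comparison that leaves only long bone array 2 in that area. With the reference genes as scale E2f1 turned to -0.11, while Ccne1 and Ccne2 stayed positive.

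The loading of replication origins gave the largest difference of all members with all 4 arrays, though Ccne2 was larger without trabecular array 2 (0.85) and without long bone array 1 (1.29 against 1.27 for Cdc6). Cdc6 and Cdt1 load the MCM helicase onto origins. Cdc6 was at 0.11 and 0.86 on the trabecular arrays and at -0.11 and -0.79 on the long bone arrays, 1.91-fold higher (log2 difference 0.94, SE 0.35, 95% interval -0.0070 to 1.88). Its areas did not overlap, but the arrays of each area lay 0.74 and 0.68 apart, and its difference was 0.56 without trabecular array 2 and 0.60 without long bone array 2. Cdt1 was at 0.11 and 0.41 against -0.11 and -0.37, with a difference of 0.49 (95% interval 0.025 to 0.96, adjusted p = 0.312 with limma). Its 3 probe sets ranged from 0.081 to 0.86, all positive. These were 2 of the 5 members with a positive difference when the arrays were centred on the reference genes, the others being Ccne1, Ccne2 and Kif20a.

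The 6 subunits of the MCM helicase, which unwinds DNA and works as a ring, were higher without overlap in 2 of 6 cases on the deposited scale and in 6 of 6 with the hybridisation controls as scale. Mcm3 was at 0.00041 and 0.30 in the trabecular area against -0.056 and -0.20, a difference of 0.27 (SE 0.16), and its 5 probe sets all had positive differences. Mcm5 was at 0.035 and 0.20 against 0.012 and -0.50, a difference of 0.36 (SE 0.21) that was 0.11 without long bone array 2. Mcm3 was at 0.13 without trabecular array 2. Both were higher without overlap, by a narrow margin on trabecular array 1. The other 4 overlapped. Mcm7 was at -0.24 and 0.36 against 0.054 and -0.079, and Mcm2 at -0.23 and 0.21 against 0.017 and 0.025, so that for both the trabecular arrays lay on either side of the long bone arrays. Mcm4 and Mcm6 differed by 0.15 and 0.048. With quantile normalization Mcm6 turned to -0.013.

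The remaining replication factors lay between these. Gins2, a subunit of the GINS complex that joins the active helicase, was at 0.028 and 0.26 against -0.28 and -0.028, a difference of 0.30 (SE 0.16) that was 0.18 without trabecular array 2 and 0.17 without long bone array 1. Pcna, the sliding clamp that holds DNA polymerase, was at 0.067 and 0.17 against -0.067 and -0.098, a difference of 0.20 (SE 0.12). Both were higher without overlap. Cdc45, the partner of GINS and MCM, overlapped at -0.068 and 0.27 against 0.12 and -0.18. All 11 licensing and firing genes were highest on trabecular array 2, as they were after quantile normalization and with the hybridisation controls as scale, while 2 were when centred on the reference genes. On the deposited scale 23.5% of all genes and 31.8% of genes with a bright probe set were highest there.

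None of the 3 enzymes of nucleotide supply was higher without overlap on the deposited scale or after quantile normalization, while 3 of 3 were with the hybridisation controls as scale. Rrm1 and Rrm2, the subunits of ribonucleotide reductase, were at -0.012 and 0.020 and at -0.042 and 0.25 in the trabecular area. In the long bone area Rrm1 was at 0.13 and -0.44 and Rrm2 at 0.042 and -0.48, so both overlapped. Tyms, which makes the DNA building block dTMP, was the S phase gene that was lower without overlap, at -0.12 and -0.044 against 0.16 and 0.052 (difference -0.19, SE 0.12). Of its 4 probe sets 3 had negative differences, and centred on the hybridisation controls the gene was at 0.29.

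**Figure D3:**
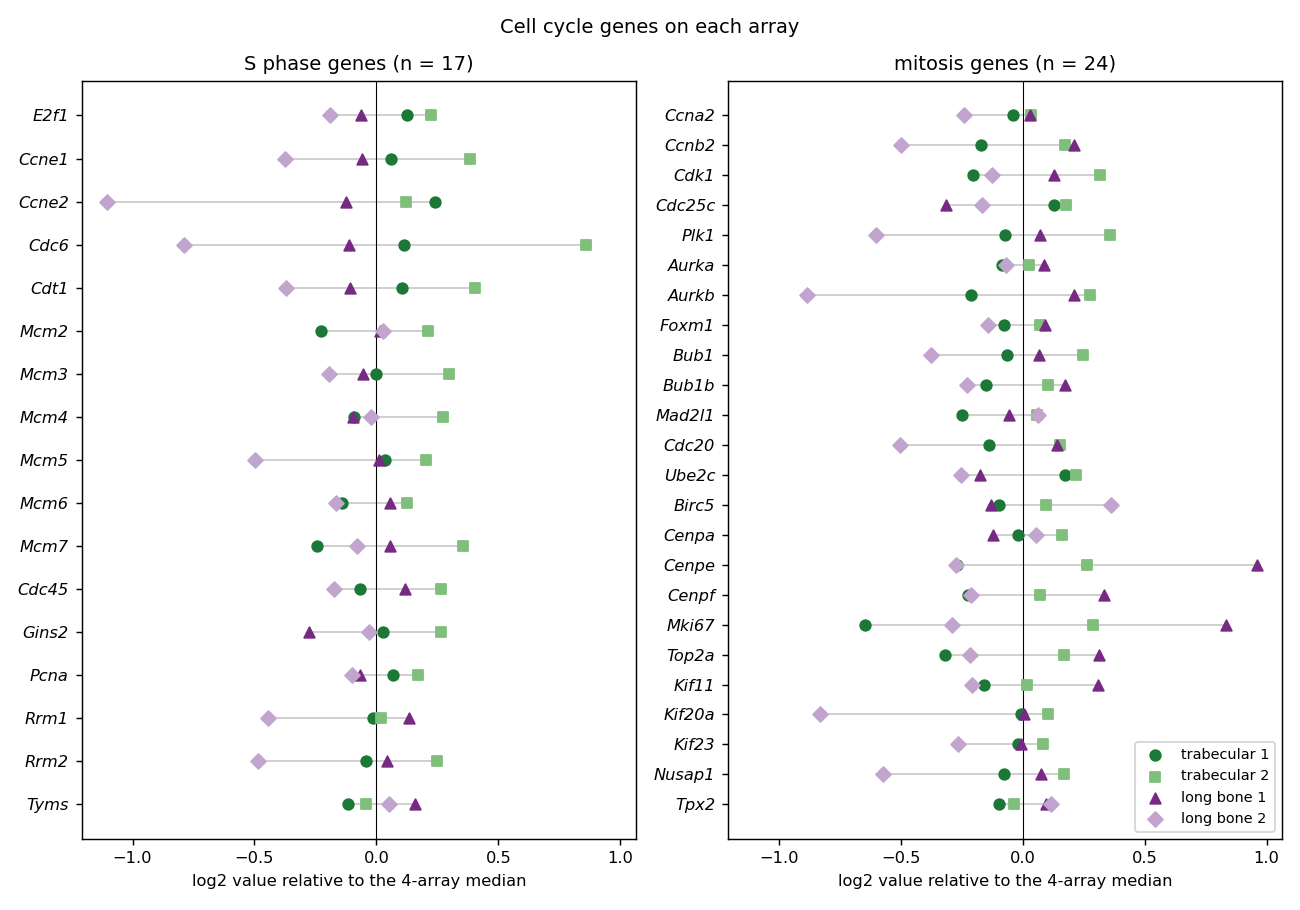
Log2 value of each measured S phase (left) and mitosis (right) member on trabecular arrays 1 and 2 (green) and long bone arrays 1 and 2 (purple), relative to the 4-array median, with a line from the lowest to the highest array. Long bone array 2 was the lowest array for 26 of 41 members, against 32.4% of all genes and 46.1% of genes with a bright probe set. Trabecular array 2 was the highest for 26 (3 when centred on the reference genes), against 23.5% and 31.8% on the deposited scale. Of the mitosis members 21 of 24 overlapped between areas, as did 8849 of all 18193 genes.

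Among the kinases and cyclins of mitotic entry 7 of 8 overlapped between the areas on the deposited scale, and 0 of 8 with the hybridisation controls as scale, where all were higher in the trabecular area. Cdk1, the kinase that drives mitosis, was at -0.20 and 0.32 on the trabecular arrays and 0.13 and -0.13 on the long bone arrays. Ccnb2, a B-type cyclin that activates it, was at -0.17 and 0.17 against 0.21 and -0.50. Ccna2, the cyclin of S phase and G2, differed by 0.10 (SE 0.15) and Foxm1, a transcription factor for mitosis genes, by 0.020 (SE 0.15). The exception was Cdc25c, the phosphatase that activates Cdk1, at 0.13 and 0.18 against -0.31 and -0.17 (difference 0.40, 95% interval 0.058 to 0.73, adjusted p = 0.291 with limma). Neither of its 2 probe sets was bright. Centred on the reference genes its difference was -0.021.

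The mitotic kinases varied more within an area than between areas. Aurkb, the kinase of the chromosomal passenger complex, was at -0.21 and 0.28 in the trabecular area and 0.21 and -0.88 in the long bone area. Its arrays of the same area lay 0.49 and 1.10 apart, against a difference between areas of 0.37 (95% interval -0.74 to 1.47). Plk1, which acts at centrosomes and kinetochores, was at -0.071 and 0.36 against 0.071 and -0.60, a difference of 0.41 (SE 0.29) that was 0.074 without long bone array 2 and 0.19 without trabecular array 2. Aurka, the spindle pole kinase, differed by -0.039, but its 2 probe sets disagreed, at -0.66 and 0.58.

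Spindle checkpoint genes delay anaphase until every chromosome is attached, and 3 of 3 overlapped on the deposited scale. With the anaphase genes named next, 5 of 5 were higher without overlap with the hybridisation controls as scale, and 2 of 5 lower with the reference genes as scale. Bub1 was at -0.066 and 0.25 against 0.066 and -0.37, Bub1b differed by 0.0048 (SE 0.20) and Mad2l1 by -0.099 (SE 0.16). Cdc20 activates the anaphase promoting complex, and its values of -0.14 and 0.15 against 0.14 and -0.50 overlapped too. Ube2c, the ubiquitin-conjugating enzyme of that complex, had close pairs, 0.046 apart in the trabecular and 0.079 (-0.079) in the long bone area. It was at 0.17 and 0.22 in the trabecular area and -0.17 and -0.25 in the long bone area, 1.33-fold higher (log2 difference 0.41, SE 0.12, 95% interval 0.090 to 0.73). Its adjusted p of 0.273 was the lowest of the members, and the difference stayed between 0.37 and 0.45 with any 1 array left out. Centred on the reference genes, which differed by as much, it was -0.0066.

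Chromosome and kinetochore genes held the widest swings of the mitosis genes, and 5 of 6 had negative differences on the deposited scale and after quantile normalization, 6 of 6 when centred on the reference genes and 0 of 6 with the hybridisation controls as scale. Mki67, the marker of dividing cells, was at -0.64 and 0.29 in the trabecular area and at 0.83 and -0.29 in the long bone area. Arrays of the same area therefore lay 0.93 and 1.12 apart, and the difference between areas was -0.45 (95% interval -1.78 to 0.88). Cenpe, a kinetochore motor, was at -0.27 and 0.26 against 0.96 and -0.28. Top2a, which untangles sister chromosomes, was at -0.32 and 0.17 against 0.32 and -0.22, and Cenpf, a kinetochore protein, at -0.23 and 0.070 against 0.33 and -0.21. For these 4 genes long bone array 1 was the highest. Birc5 (survivin) was highest on long bone array 2, at 0.36 against -0.13 on long bone array 1 and -0.097 and 0.097 on the trabecular arrays. Cenpa, the histone of the centromere, differed by 0.10 (SE 0.14).

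Spindle motors and spindle proteins overlapped in 4 of 5 cases on the deposited scale, while 4 of 5 were higher without overlap with the hybridisation controls as scale and 3 of 5 lower with the reference genes as scale. Kif11, which pushes spindle poles apart, was at -0.16 and 0.017 against 0.31 and -0.21, and its 3 probe sets ranged from -0.97 to 0.34. Kif20a, a motor of cell division's final step with no bright probe set, was at -0.0065 and 0.11 against 0.0065 and -0.83, so its difference of 0.46 came from long bone array 2 and was 0.043 without it. Without long bone array 1 it was 0.88. Kif23 and Nusap1 differed by 0.17 and 0.30. Tpx2, an activator of Aurka on the spindle, was lower without overlap at -0.096 and -0.037 against 0.095 and 0.11, but its 4 probe sets ranged from -0.83 to 0.59.

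Most members shared an order of the arrays within each area, which does not compare the areas with each other. Trabecular array 2 lay above trabecular array 1 for 40 of 41 members (97.6%, against 41.2% of all genes), Ccne2 being the exception. Long bone array 1 lay above long bone array 2 for 33 of 41 (80.5%, against 43.7%). Both held for 32 of 41 members, 13 of 17 S phase genes and 19 of 24 mitosis genes, against 20.8% of all genes. Among genes with a bright probe set, as 38 of the members had, these shares were 48.3%, 55.3% and 28.7%. Both held for 33 members after quantile normalization, for 31 with the hybridisation controls as scale (23.3% of all genes) and for 23 when centred on the reference genes (9.55% of all genes). The members' median gap was 0.26 within the trabecular area and 0.27 within the long bone area. The difference between areas was larger than both gaps for 10 members (24.4%, against 35.8% of genes), 7 of them S phase and 3 mitosis genes.

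**Figure D4:**
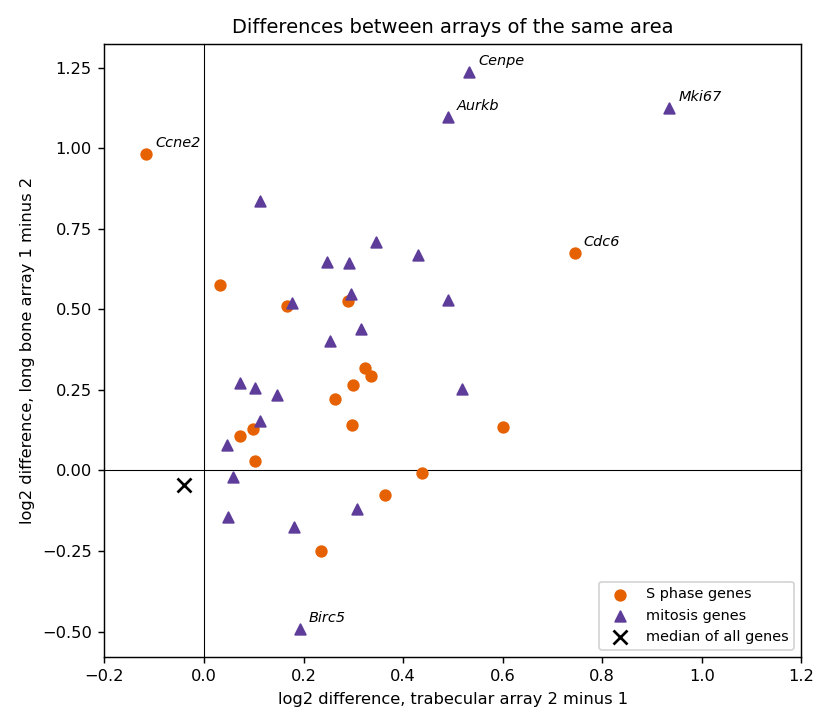
Each point is a member, with the log2 difference of trabecular array 2 minus 1 on the horizontal axis and of long bone array 1 minus 2 on the vertical axis. Orange circles are S phase genes, purple triangles mitosis genes and the cross is the median of all genes (-0.040 and -0.044). The upper right part, above 0 on both axes, holds 32 of 41 members, with Mki67 farthest out at 0.93 and 1.12.

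S phase and mitosis genes parted on long bone array 1. The median of the S phase genes was 0.00041 and 0.25 in the trabecular samples and -0.056 and -0.19 in the long bone samples. The median of the mitosis genes was -0.096 and 0.16, and 0.090 and -0.24. The S phase median thus stood 0.097 and 0.090 above the mitosis median on the trabecular arrays, 0.043 above it on long bone array 2 and 0.15 below it on long bone array 1 (-0.15). The mean gap was 0.14 larger in the trabecular area, and a constant added to an array leaves it as it is. It was 0.18 after quantile normalization and 0.049 over bright probe sets, while leaving out long bone array 1 gave 0.050 and leaving out long bone array 2 gave 0.24. The gap was not tested.

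Agreement between probe sets of a gene was better for S phase than for mitosis genes in these counts. Of 14 S phase genes with several probe sets 9 had differences of 1 sign, and of 16 mitosis genes 6 did. This contrast was not tested.

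Further genes of the pathway, from lists of known roles, were read in the same fit, and 0 were called in any list. Of 46 further S phase genes 34 had positive differences (median 0.19), with 12 higher without overlap (26.1%, against 29.9% of all and 41.4% of bright genes) and 1 lower. Orc4, a subunit of the origin recognition complex, was at 0.46 and 0.18 against -0.18 and -0.48 (difference 0.65, SE 0.18). Rpa2, which coats single-stranded DNA, and Rfc2, a subunit of the loader of Pcna, differed by 0.61 and 0.57, and Gins4 by 0.51. Of 66 further mitosis genes 53 had positive differences (median 0.19), with 20 higher without overlap (30.3%, near the share of all genes) and 5 lower. Cenpl, a centromere protein, differed by 0.82 (SE 0.19), Fzr1, an activator of the anaphase promoting complex, by 0.80 (SE 0.37), Depdc1a by 0.76 (SE 0.42) and the motor Kifc1 by 0.66 (SE 0.15). Without long bone array 2 Fzr1 was at 0.29 and Depdc1a at 0.15. The contrast between S phase and mitosis members was therefore not seen in these longer lists, whose medians were alike. Their array order was that of the members: trabecular array 2 above 1 with long bone array 1 above 2 held for 29 of 46 further S phase and 46 of 66 further mitosis genes. Centred on the reference genes both medians turned negative, at -0.22 and -0.23, with 1 and 4 genes higher and 17 and 30 lower without overlap, and with the hybridisation controls as scale they were 0.67 and 0.66.

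Of 7 G1 cyclins and kinases 4 shared that order, with a median difference of -0.13 that was 0.34 with the hybridisation controls as scale. Cdk4 and Cdk2, the kinases of G1 and of the G1 to S border, differed by 0.57 and 0.50, with Cdk4 at -0.011 and 0.79 against -0.016 and -0.34. Cdk2 was at 0.078 without long bone array 2 and Cdk4 at 0.17 without trabecular array 2. Ccnd1, cyclin D1, was lower without overlap, at -0.13 and -0.19 against 0.11 and 0.21, and so was Cdc25a (difference -0.24), a phosphatase that activates Cdk2. Of 17 inhibitors and genes of resting cells 4 shared the order (20.8% of all genes did), and 14 had positive differences (median 0.41). Without overlap 7 were higher (41.2%, against 29.9% of all and 41.4% of bright genes, and 16 of the 17 had a bright probe set) and 2 lower. On trabecular array 1, where no mitosis member was highest, 11 of 17 were highest. So were 5103 of all 18193 genes and 2750 of the 8811 with a bright probe set. The CDK inhibitors Cdkn2d (p19) and Cdkn1b (p27) differed by 0.92 and 0.61, the retinoblastoma gene Rb1 by 0.85 and the p53 target Ccng1 by 0.64. Cdkn2d was at 0.79 and 0.22 against -0.22 and -0.59. Centred on the reference genes the inhibitors' median turned to -0.0093 and 8 of 17 were highest on trabecular array 1, against 1890 of all 18193 genes.

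Markers of other marrow cells were read beside the members, since these cells could be in the sort. Most cartilage genes differed far more than any member, but Sox9 and Col10a1 differed by only -0.24 and -0.27. Of the list 8 of 8 had negative differences and 7 were lower in the trabecular area without overlap, with a median of -3.04. With the hybridisation controls as scale 6 of 8 were lower and the median was -2.56. Macrophage genes had a median of -0.33, with 1 of 8 higher and 3 lower, that turned to 0.14 on that scale. Of 11 measured neutrophil precursor genes, all with a bright probe set, 8 were above on trabecular array 2 as the members were. Their medians were -0.39 and 0.48 on the trabecular arrays and -0.11 and 0.11 on the long bone arrays. In the long bone area the list was split, with array 1 above array 2 for 5 of 11, and 2 followed the members' order in both areas. Ctsg, a granule protease of these precursors, was at -1.07 and 1.06 against -0.44 and 0.44. Of 11 erythroid and 11 early B cell genes 0 followed the members' order in both areas, with medians from -0.19 to 0.28 and from -0.080 to 0.29 over the arrays. Within the trabecular area alone, array 2 was above array 1 for 9 of the 11 erythroid and 7 of the 11 early B cell genes. The share of all genes was 41.2%. Stem and progenitor genes had medians from -0.10 to 0.25. Of these 2 of 8 followed the members' order, Kit and Myb (25%, against 20.8% of all genes). The other 6 were highest on long bone array 2, as were 6402 of all 18193 genes. Myb, a transcription factor of dividing blood progenitors, was at -0.14 and 0.87 against 0.14 and -1.12. Ptprc, the gene of CD45, was at -0.49 and -0.097 against 0.59 and -0.50, close to the order of Mki67. Ctsg, Myb and Ptprc were picked after their values were seen. The part of these cells in the members' values was not tested. Centring removed levels, so no marker can be called absent.

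**Figure D5:**
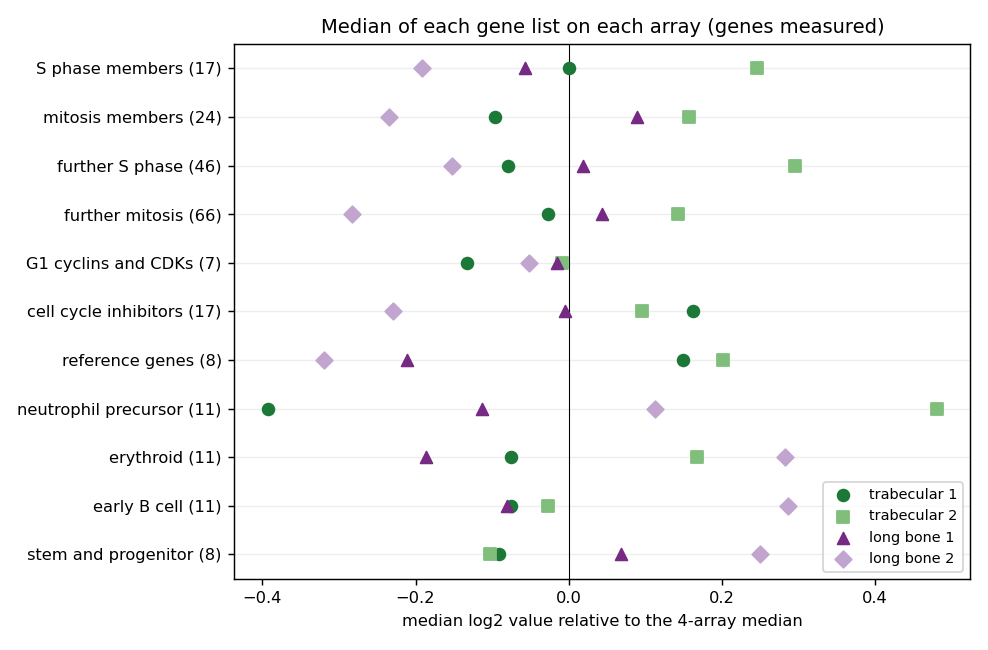
Median log2 value of each gene list on the 4 arrays, relative to the 4-array median, with the number of measured genes in brackets. On the deposited scale the S phase and mitosis lists are highest on trabecular array 2 and lowest on long bone array 2, the inhibitors are highest on trabecular array 1, and neutrophil precursor genes span -0.39 to 0.48 within the trabecular area. With the reference genes as scale the S phase and mitosis lists are lowest on trabecular array 1.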

How the data were processed

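Sorted cells of 4 mouse samples, 2 per bone area, were measured on Affymetrix arrays, with groups and replicate numbers taken from the titles. A human array is named in the design, whereas all probe sets used here have mouse annotation. The tool was RMA (version not given), per the submitters' processing notes. The authors' deposited numbers are taken as log2 because RMA writes that base and the number steps fit it, and every fold rests on this. They were also centred by the authors: the median over the 4 arrays is 0 for all 45101 probe sets. No source used here names the log base or the centring software.

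Of the probe sets, 64 were controls, 932 had several genes, 9160 had none and 34945 had 1. A gene's value is the mean of its single-gene probe sets. The fit used limma 3.58.1 under R 4.3.3 (lmFit then eBayes, 2 residual degrees of freedom, no block), with Benjamini-Hochberg adjustment over all genes and a threshold of 0.05. Probe sets were called bright where all values were multiples of the number step of log2 levels of 8 and above. The fit and this reading were tested on simulated data. Lists held 245 further genes, 16 of them not analysed here, and 6 were matched through other symbols.

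Members and lists were chosen with earlier results of these data known. Members named with array values are up to 6 per phase with the largest difference without overlap, members of each role by range, and up to 4 genes per further list. Alternatives were other scalings, other ways to combine probe sets, bright probe sets alone, left-out arrays, a robust prior and a replicate block. Scaling on hybridisation controls and the crossed block were chosen after seeing the data. Replicate numbers do not pair the samples in the labels. Deviations of the arrays numbered 1 from their area means correlated across genes at -0.11.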

Additional observations from a re-analysis of the deposited data

How the results depend on the processing

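The count of called members was 0 with quantile normalization, reference gene centring, medians of probe sets, unique probe sets, bright probe sets, a robust prior and single probe sets, and 16 with hybridisation control centring (8257 of all genes). It was also 0 with the replicate block and with the crossed replicate block, with 1 and 5 members at an unadjusted p under 0.05, against 3 without a block. The replicate number is no pairing in the labels. The reference gene and hybridisation control scalings add a constant of about -0.42 and 0.47 to every difference and so move the members with all genes, whose medians became -0.39 and 0.50. The cause of the difference between these scales was not tested.

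The median of mitosis members was -0.016 with quantile normalization, -0.34 with reference gene centring and 0.55 with hybridisation control centring, and -0.084 to 0.22 with 1 array left out. That of S phase members was -0.14 and 0.75 with these 2 scalings. The gap between S phase and mitosis genes was 0.049 over bright probe sets. With 1 array left out members higher without overlap numbered 11 to 28. They numbered 0 with reference gene and 35 with hybridisation control centring (5.18% and 83.3% of all genes). Members lower without overlap numbered 24 and 0 with these scalings (65.8% and 1.62% of all genes). They numbered 1 with unique and 1 with bright probe sets, and 2 to 12 with 1 array left out. Counts of called members with 1 array left out are not given, as such a fit rests on 1 array in an area.

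Log2 differences of single members changed sign as follows. With quantile normalization: Mcm6 -0.013, Ccnb2 -0.020, Cdk1 -0.012, Foxm1 -0.031 and Bub1b -0.086. With medians of probe sets: Mcm6 -0.041, Foxm1 -0.013 and Cenpa -0.062. With unique probe sets: Mcm2 0.29 and Bub1b -0.026. With bright probe sets, where 3 members have none: Mcm6 -0.00011, Aurka 0.58, Foxm1 -0.091 and Kif11 0.34. With reference gene centring, 25 members: E2f1 -0.11, Mcm3 -0.14, Mcm4 -0.27, Mcm5 -0.055, Mcm6 -0.37, Mcm7 -0.35, Cdc45 -0.29, Gins2 -0.12, Pcna -0.21, Rrm1 -0.26, Rrm2 -0.094, Ccna2 -0.31, Ccnb2 -0.27, Cdk1 -0.36, Cdc25c -0.021, Plk1 -0.0075, Aurkb -0.049, Foxm1 -0.40, Bub1 -0.17, Bub1b -0.41, Cdc20 -0.23, Ube2c -0.0066, Cenpa -0.31, Kif23 -0.25 and Nusap1 -0.12. With hybridisation control centring, 11 members: Mcm2 0.45, Tyms 0.29, Aurka 0.43, Mad2l1 0.37, Birc5 0.36, Cenpe 0.13, Cenpf 0.33, Mki67 0.024, Top2a 0.35, Kif11 0.35 and Tpx2 0.30. With 1 array left out, as ranges: Mcm2 -0.25 to 0.19, Aurka -0.11 to 0.038, Mad2l1 -0.25 to 0.054, Cenpf -0.41 to 0.13, Mki67 -1.01 to 0.11, Top2a -0.39 to 0.14, Mcm4 -0.032 to 0.33, Mcm6 -0.084 to 0.18, Mcm7 -0.23 to 0.37, Cdc45 -0.040 to 0.29, Ccnb2 -0.21 to 0.50, Cdk1 -0.20 to 0.32, Foxm1 -0.098 to 0.14, Bub1b -0.20 to 0.21, Cenpe -0.96 to 0.27, Kif11 -0.38 to 0.14, Rrm1 -0.13 to 0.45, Ccna2 -0.032 to 0.24, Aurkb -0.18 to 0.92, Cdc20 -0.13 to 0.51, Birc5 -0.36 to 0.13 and Nusap1 -0.028 to 0.62.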
